A study of Mus musculus with 34 samples.

Results

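The promoters of the ribosomal protein genes were described across all 30 deposited peak lists of the series. A gene was a member when it was protein-coding, autosomal and named Rpl or Rps followed by a digit, or was Rplp0, Rplp1, Rplp2 or Rpsa, in the mouse GENCODE annotation. Names that begin with Rps6k, which are kinases, and names with l1 after the number were left out. This gave 86 members, 52 of the large subunit (Rpl) and 34 of the small subunit (Rps), of 20722 autosomal protein-coding genes. The start of a gene was that of its longest protein-coding transcript, its promoter reached 1 kb up- and downstream of it, and a promoter was called for an antibody and condition when a peak of that list overlapped it. The rule reads gene names and no measured value.

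The series is a ChIP-seq study of dendritic cells grown from bone marrow of C57BL/6 mice aged 8 weeks. The marrow was cultured for 6 days in GM-CSF, the cytokine that drives myeloid precursors to dendritic cells, and CD11c+ cells were selected. CTCF-WT cells came from CreER mice, and CTCF-KO cells from CreER;CTCF fl/fl mice, in which the Ctcf alleles are flanked by sites that Cre cuts. CreER is a Cre recombinase that acts only when 4-OH tamoxifen is present, and both genotypes were given that drug on the first day of culture, so the WT cells carried the recombinase and the drug too. CreER was driven from the Rosa26 locus, which is active in cells of all types, so recombination was not limited to dendritic cells. Cells of each genotype were left unstimulated (WT and KO) or were given LPS, the bacterial lipopolysaccharide that TLR4 senses, at 100 ng/ml for 3 h (WTLPS and KOLPS). Antibodies against CTCF, SMC1, p65, H3K27ac, H3K27me3, H3K4me1 and H3K4me3 were used in all 4 conditions, and STAT5 was profiled in WT and KO after cells had met GM-CSF again for 15 min. Each antibody and condition had 1 peak list, which may stem from 1 replicate or from pooled ones, since the labels give neither. Differences between conditions are therefore given as counts and values with no test, and none has a replicate check.

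Ribosomal proteins form, with ribosomal RNA, the small and the large subunit of the ribosome that translates mRNA in the cytoplasm. Their genes are spread over the genome, are transcribed at high and coordinated rates in nearly every cell, and are a common reference for housekeeping transcription. Their start site often lies in a run of pyrimidines, called a TCT initiator, and the matching 5′ end of the mRNA, the 5′ TOP, lets growth signals set its translation. Many of these genes also carry small nucleolar RNAs (snoRNAs), which guide the modification of ribosomal RNA, in their introns. H3K4me3 and H3K27ac mark active promoters, H3K4me1 flanks them and marks enhancers, and H3K27me3 is the mark of Polycomb repression. CTCF is a zinc finger protein that binds a long GC-rich motif and halts the ring complex cohesin, of which SMC1 is a subunit. p65 is the NF-kB subunit that LPS sends to the nucleus, and STAT5 is the factor that GM-CSF receptors activate.

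The members lay on 19 chromosomes, the most on any of them being 14 on chromosome 7. The closest pair of starts was 4322 bp apart, so no 2 members shared a promoter window. snoRNA genes lay inside 28 members (32.6%) against 1.16% of all autosomal protein-coding genes. A start of another protein-coding gene lay within 1 kb of the start of 14 members (16.3%, against 10.4% of all genes), and peaks there cannot be assigned to 1 of the genes alone. These members, with the neighbour in parentheses, were Rps27a (Clhc1), Rpl36al (Mgat2), Rpl15 (Nkiras1), Rpl35a (Iqcg), Rps10 (RPS10-NUDT3), Rps28 (Ndufa7), Rps18 (Vps52), Rps14 (Ndst1), Rpl7a (Med22), Rpl12 (Lrsam1), Rps27 (Rab13), Rpl9 (Lias), Rps25 (Trappc4) and Rpl4 (Zwilch). The name rule also took in genes that are not standard subunits. Rpl10l and Rpl39l are known as testis-restricted copies and Rpl3l as the muscle form of Rpl3, Rps27l is a near copy of Rps27, and Rps19bp1 encodes a protein that binds Rps19 and is not part of the ribosome. In all, 8 members had a single exon, which is typical of copies made from mRNA: Rpl9-ps1, Rpl10l, Rpl36al, Rpl36a-ps1, Rpl9-ps6, Rps12-ps3, Rpl10-ps3 and Rps27rt.

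Promoter sequences of the RefSeq annotation, build GRCm38.p6, were matched to 58 of the 86 members. The other 28 included Rpl7, Rps27a, Rpl23a, Rpl9-ps1, Rps29, Rpl36a-ps1, Rpl30, Rpl8, Rpl3, Rpl36, Rpl36-ps4, Rps14, Rpl17, Rpl9-ps6, Rps12-ps3, Rps20, Rpl21, Rpl32, Rpl18, Rps25, Rpl10-ps3, Rplp1 and Rpl29. The matched RefSeq and GENCODE starts lay a median of 33 bp apart. The stretches below run from 250 bases before to 20 bases after the RefSeq start, 5′ to 3′ on the strand of the gene, and stand for 3 classes that the peak lists separated. Capitals mark every match, on either strand, of CCGGAAG for ETS factors, AAGATGGC for YY1, GCGCATGC for NRF1, TATAAA for the TATA box, GGANTTTCC for NF-kB, TTCNNNGAA for STAT5 and AGNGGGCGC for CTCF. They also mark AGNGGGC, a shorter CTCF core that was chosen after the sequences had been seen and that every full CTCF match contains. Last, capitals mark CTTTC or CTTTT beginning within 5 bases of the start, called TCT-like here. Rplp0 (chr5:115559217-115559486, plus strand), Rpl38 (chr11:114668330-114668599, plus) and Rpl5 (chr5:107900278-107900547, plus) are shown because CTCF was called there in all 4 conditions with its WT summit inside the bases printed:
Rplp0: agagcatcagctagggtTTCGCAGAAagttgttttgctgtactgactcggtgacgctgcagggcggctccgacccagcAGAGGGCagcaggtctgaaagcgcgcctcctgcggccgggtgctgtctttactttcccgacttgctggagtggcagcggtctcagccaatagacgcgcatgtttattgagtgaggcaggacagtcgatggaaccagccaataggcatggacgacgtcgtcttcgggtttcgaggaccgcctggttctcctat
Rpl38: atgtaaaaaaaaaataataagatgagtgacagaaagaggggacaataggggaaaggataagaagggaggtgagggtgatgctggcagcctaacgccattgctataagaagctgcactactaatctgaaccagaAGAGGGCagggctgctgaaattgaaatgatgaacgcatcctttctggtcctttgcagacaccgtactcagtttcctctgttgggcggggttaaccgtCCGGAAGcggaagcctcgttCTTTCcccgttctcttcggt
Rpl5: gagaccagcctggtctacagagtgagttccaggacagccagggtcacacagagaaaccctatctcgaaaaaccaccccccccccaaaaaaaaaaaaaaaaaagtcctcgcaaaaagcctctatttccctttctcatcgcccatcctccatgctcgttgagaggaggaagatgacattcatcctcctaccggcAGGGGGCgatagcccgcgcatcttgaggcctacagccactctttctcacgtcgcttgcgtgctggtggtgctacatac

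Rps3 (chr7:99483690-99483959, minus strand), Rps12 (chr10:23787190-23787459, minus) and Rpsa (chr9:120127516-120127785, plus) are shown because SMC1 was called there in KO and not in WT:
Rps3: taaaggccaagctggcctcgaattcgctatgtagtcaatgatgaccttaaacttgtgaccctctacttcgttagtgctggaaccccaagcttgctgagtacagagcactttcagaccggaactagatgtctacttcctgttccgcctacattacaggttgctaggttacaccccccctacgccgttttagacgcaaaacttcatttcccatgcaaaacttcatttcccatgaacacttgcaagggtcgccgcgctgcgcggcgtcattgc
Rps12: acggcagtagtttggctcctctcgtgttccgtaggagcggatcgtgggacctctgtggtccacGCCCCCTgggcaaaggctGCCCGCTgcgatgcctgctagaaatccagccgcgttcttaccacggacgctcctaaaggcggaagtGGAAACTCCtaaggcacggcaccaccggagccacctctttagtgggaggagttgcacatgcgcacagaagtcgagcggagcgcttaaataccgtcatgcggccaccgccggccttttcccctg
Rpsa: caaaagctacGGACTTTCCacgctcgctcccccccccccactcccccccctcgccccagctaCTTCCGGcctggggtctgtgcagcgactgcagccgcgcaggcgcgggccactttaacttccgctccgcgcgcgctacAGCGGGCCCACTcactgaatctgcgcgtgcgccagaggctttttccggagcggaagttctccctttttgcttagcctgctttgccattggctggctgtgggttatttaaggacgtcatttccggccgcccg

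Rps16 (chr7:28350439-28350708, plus strand) and Rpl28 (chr7:4792715-4792984, plus) are shown because they carried both active marks and had neither CTCF nor SMC1 in any condition:
Rps16: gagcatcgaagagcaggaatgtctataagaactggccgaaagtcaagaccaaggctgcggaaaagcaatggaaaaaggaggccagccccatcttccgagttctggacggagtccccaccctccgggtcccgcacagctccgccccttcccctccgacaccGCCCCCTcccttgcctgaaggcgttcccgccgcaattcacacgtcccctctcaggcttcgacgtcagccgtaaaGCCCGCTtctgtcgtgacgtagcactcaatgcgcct
Rpl28: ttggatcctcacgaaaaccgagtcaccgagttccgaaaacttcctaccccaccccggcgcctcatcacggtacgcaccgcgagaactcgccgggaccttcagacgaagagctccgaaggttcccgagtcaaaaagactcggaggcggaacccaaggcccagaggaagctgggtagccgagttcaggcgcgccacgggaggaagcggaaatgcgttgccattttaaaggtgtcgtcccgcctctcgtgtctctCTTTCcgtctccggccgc

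In Rplp0, which encodes the stalk protein P0 of the large subunit, the WT CTCF summit lay at -168 from the RefSeq start and the CTCF core began at -172. In Rpl38 the summit lay at -122 and the core began at -117. In Rpl5, whose product joins Rpl11 and 5S RNA in a particle that can bind Mdm2, the positions were -47 and -58. The core is also present in stretches where no CTCF was called, such as that of Rps16, the stretch of Rps3 holds no match at all, and a match is only a description of the letters.

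Over the 58 members with a sequence of 300 bases, the ETS letters were found in 23 (39.7%), against 13.6% of 13899 promoters of all genes. Among the promoters that carried both active marks in all 4 conditions the ETS share was 24.5%. The TCT-like start was found in 12 members (20.7%), against 2.71% of all promoters and 2.86% of the active ones. GGGCGG, the letters of SP1, stood in 60.3% of members, 52.8% of all promoters and 68.7% of the active ones, so the members lay between those 2 sets. NF-kB letters were found in 3 members, Rps12, Rps2 and Rpsa (5.17%, against 1.31% of all promoters). Shares for YY1 were 6.9% and 3.49%, for STAT5 6.9% and 7.5%, for NRF1 3.45% and 4.07% and for TATA 5.17% and 11.2%, in members and in all promoters. The full CTCF letters matched no member's window and 4.34% of all windows, and the shorter core matched 27.6% and 32.5%. Median GC content was 58.5% in members and 58.3% in all promoters. The TCT-like start and the ETS letters thus had the widest gaps, in percentage points, between members and active promoters.

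The lists held 504 to 96475 peaks, fewest for p65 in KO and most for H3K27me3 in WT. At all autosomal promoters CTCF was called at 19.2% in WT and 11.6% in KO, and at 17.3% in WTLPS and 5.59% in KOLPS. Of the 2407 promoters with CTCF in KO, 901 had none in WT. The lists hold no measure of how far the gene had been deleted, which the study examined by other assays that were not analysed here. The weakest peaks kept in the CTCF and SMC1 lists all had a −log10 p near 7, but background coverage, recovered from peak height and p, differed between lists (SMC1 5.34 to 5.77 fragments per base in WT, WTLPS and KO and 4.50 in KOLPS; CTCF 2.82 to 3.74). Promoters of 8 of 8 dendritic and myeloid marker genes had H3K4me3 in every condition, and 7 of 8 had H3K27ac. Markers of T cells, B cells and granulocyte precursors (3 genes each) had neither mark in any condition. H3K4me3 was also present at 4 of 4 macrophage markers and at 2 of 3 erythroid ones, and H3K27ac at 2 or 3 of 4 and at 0 of 3. The part of other cell types in the results was not tested.

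H3K4me3 and H3K27ac were present at nearly all multi-exon members in every condition. H3K4me3 was called at 76 of the 86 promoters in each of the 4 lists (88.4%, 95% Wilson interval 79.9 to 93.6), against 58.1%, 58.6%, 58.6% and 57.8% of all promoters in WT, WTLPS, KO and KOLPS. Members called in all 4 lists numbered 75, where 56.2% of all promoters were. H3K27ac was called at 75, 74, 76 and 76 members in the same order, against 44.4%, 41%, 44.9% and 40.8% of all promoters. It was called in all 4 conditions at 73 members, against 35.4% of all promoters. Between WT and KO, 0 members had it in WT alone and 1 in KO alone, where 2.99% and 3.5% of all promoters did. Between WTLPS and KOLPS the counts were 0 and 2 (4.07% and 3.78% of all promoters), and 2 members had it in WT but not WTLPS and 1 the reverse (5.46% and 2.11%). Both marks were present in all 4 conditions at 72 members, 43 Rpl and 29 Rps, and this group is called the active members below. All promoters with both marks in all 4 lists (7174, or 34.6%) are called the active promoters and serve as the closer background. Shares of members below are of all 86 unless stated, so they include members without both marks, which this background leaves out by definition.

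**Figure D1:**
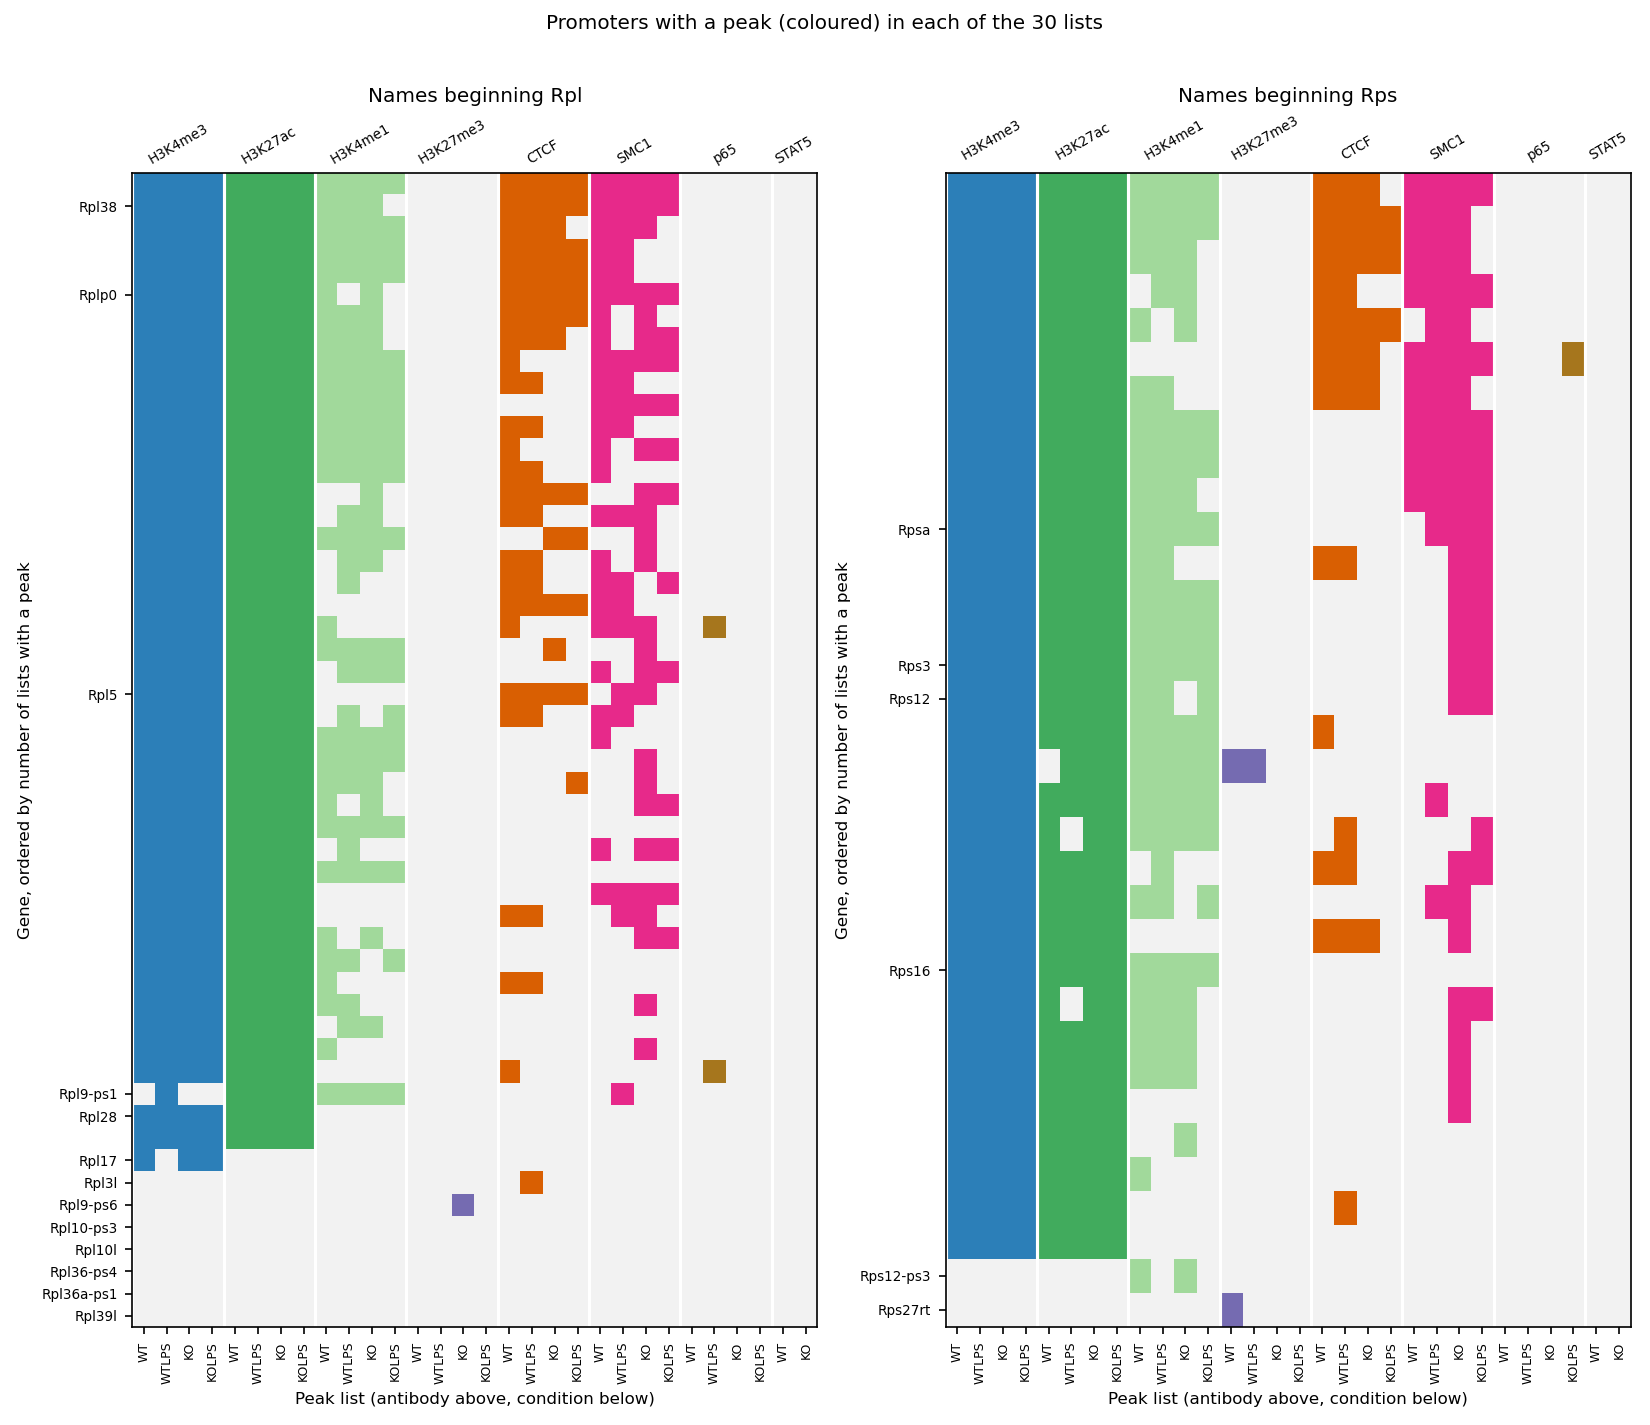
Calls at the 86 ribosomal protein promoters (rows, Rpl on the left and Rps on the right) in the 30 peak lists (columns, grouped by antibody with conditions in order), where a coloured cell is a promoter with a peak within 1 kb of the start, and where the rows named are members whose sequence is printed or that lacked H3K4me3 in at least 1 condition. The H3K4me3 and H3K27ac columns are filled at 74 to 76 rows each, CTCF and SMC1 at 14 to 49, and p65, STAT5 and H3K27me3 at 0 to 2.

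Members without the active marks were mostly single-exon copies and tissue-restricted forms. H3K4me3 was called in no condition at 9 members: Rpl10l, Rpl36a-ps1, Rpl39l, Rpl3l, Rpl36-ps4, Rpl9-ps6, Rps12-ps3, Rpl10-ps3 and Rps27rt. Of these, 6 have a single exon. No peak of any of the 30 lists overlapped the promoters of 5 of them, Rpl10l, Rpl36a-ps1, Rpl39l, Rpl36-ps4 and Rpl10-ps3. Rps27l, in contrast, carried both marks in all 4 conditions, with an H3K4me3 fold of 39.9 in WT and 44.1 in WTLPS, and 39.1 in KO and 26.8 in KOLPS. Rpl36al, a single-exon gene whose start lies beside that of Mgat2, did too.

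A few members differed in their active marks between conditions. Rpl17 had H3K4me3 in WT, KO and KOLPS and not in WTLPS, and H3K27ac in none. Its H3K4me3 summits lay 2474 bp (WT), 1562 bp (KO) and 2033 bp (KOLPS) downstream of the start. All 3 were outside the promoter window, so these calls rest on the edge of a peak and do not show a loss of the mark with LPS. Rpl9-ps1 had H3K4me3 in WTLPS alone, at a fold of 7.43, and H3K27ac in all 4 conditions. Its H3K27ac folds were 17.3 in WTLPS, 5.52 in WT, 6.71 in KO and 8.33 in KOLPS. Among the promoter peaks of their own lists these stood at percentiles 92.45, 22.8, 28.15 and 61.3. The H3K27ac peak in WTLPS was 6393 bp wide with its summit at -3215 bp from the start, outside the promoter window. Rps14 had no H3K27ac peak in WT, and folds of 5.005 in WTLPS and of 6.29 and 5.56 in KO and KOLPS. Rps21 and Rps19bp1 had no H3K27ac peak in WTLPS and folds from 4.998 to 7.44 in the other conditions. The H3K27ac folds of Rps14, Rps21 and Rps19bp1 stood at percentiles 17.3 to 37.1 among the promoter peaks of their own lists. The lowest H3K27ac folds of any member were 4.14 in WT and 3.64 in WTLPS, and 5.72 in KO and 4.44 in KOLPS.

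Fold, the enrichment of a peak's summit over background in the authors' lists, can be compared only within a list, so each peak was also ranked among the promoter peaks of its own list. H3K4me3 fold in WT ran from 9.89 to 50.6 with a median of 37.0. Among the highest were Rpl4 at 50.6, Rpl15 at 48.4, Rps9 at 45.3 and Rpl9 at 45.3, and the lowest were Rps14 at 9.89, Rpl6 at 23.3, Rpl10a and Rpl12 at 25.6 and Rpl17 at 26.9. The median percentile of the members was 82.8 in WT and 85.7 in WTLPS, and 76.5 in KO and 73.2 in KOLPS, while that of all active promoters was 66.1, 67.6, 68.4 and 68.0. The members thus stood above the middle of the active promoters in every list. H3K4me3 summits lay downstream of the start at 72 of 76 members in WT (94.7%, against 79.9% of all called promoters), at a median of 437 bp. The peak itself covered the start at 75 of 76.

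The rank of H3K4me3 was lower in KO than in WT at most members. Of 76 members called in both, 53 were lower and 23 higher, with a median difference of 5.41 percentile points downward. Among active promoters 3588 were higher and 3586 lower. After LPS 52 of 75 were lower in KOLPS than in WTLPS and 23 higher, and 47.5% of active promoters were higher. Mitochondrial ribosomal protein genes leaned the same way, so the direction was not particular to the members. Of these genes 48 of 78 were lower in KO than in WT, and 49 of 78 in KOLPS than in WTLPS. Their median differences were -2.97 and -5.63 points. Rpl15, a protein of the large subunit, stood at percentile 98.9 in WT and 47.8 in KO, then at 87.7 in WTLPS and 93.2 in KOLPS, so its low rank was in the KO list alone.

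H3K27ac differed in the opposite direction in rank. Its WT fold ran from 4.14 to 21.6, with Rpl19 at 21.6, Rps26 at 20.3, Rpl4 at 18.9, Rpl32 at 17.5 and Rplp2 and Rpl18 at 17.0 the highest. Rps24 at 4.14, Rpl38 and Rplp0 at 4.602, Rpl10a at 4.71 and Rpl12 and Rpl5 at 5.06 were the lowest. The median percentile of the members was 55.7 in WT and 57.9 in WTLPS, and 74.4 in KO and 63.6 in KOLPS, beside 59.95, 53.8, 59.1 and 55.7 for active promoters. Of 75 members called in WT and KO, 58 ranked higher in KO and 17 lower, with a median difference of 11.5 points, while 52.1% of active promoters ranked higher. After LPS 49 of 74 ranked higher in KOLPS than in WTLPS and 25 lower, with a median of 7.16 points, and 51.9% of active promoters ranked higher. Mitochondrial ribosomal protein genes leaned upward too, so this direction was also not particular to the members. Of these genes 44 of 68 ranked higher in KO than in WT, and 39 of 62 in KOLPS than in WTLPS. Their median differences were 6.035 and 8.40 points.

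Rplp0 had the widest H3K27ac difference between WT and KO, with percentiles of 10.6 in WT, 77.6 in KO, 44.3 in WTLPS and 25.8 in KOLPS. Its direction in the unstimulated pair was thus the reverse of that after LPS. Rpl10a ranked at 12.9 in WT and 54.2 in KO, and at 6.95 in WTLPS and 42.0 in KOLPS. Rpl22 was among the 17 that ranked lower, at 67.9 in WT and 31.2 in KO. H3K27ac background coverage was 1.17 and 1.20 fragments per base in WT and WTLPS and 0.748 and 0.801 in KO and KOLPS, and the part of that in the ranks was not tested.

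**Figure D2:**
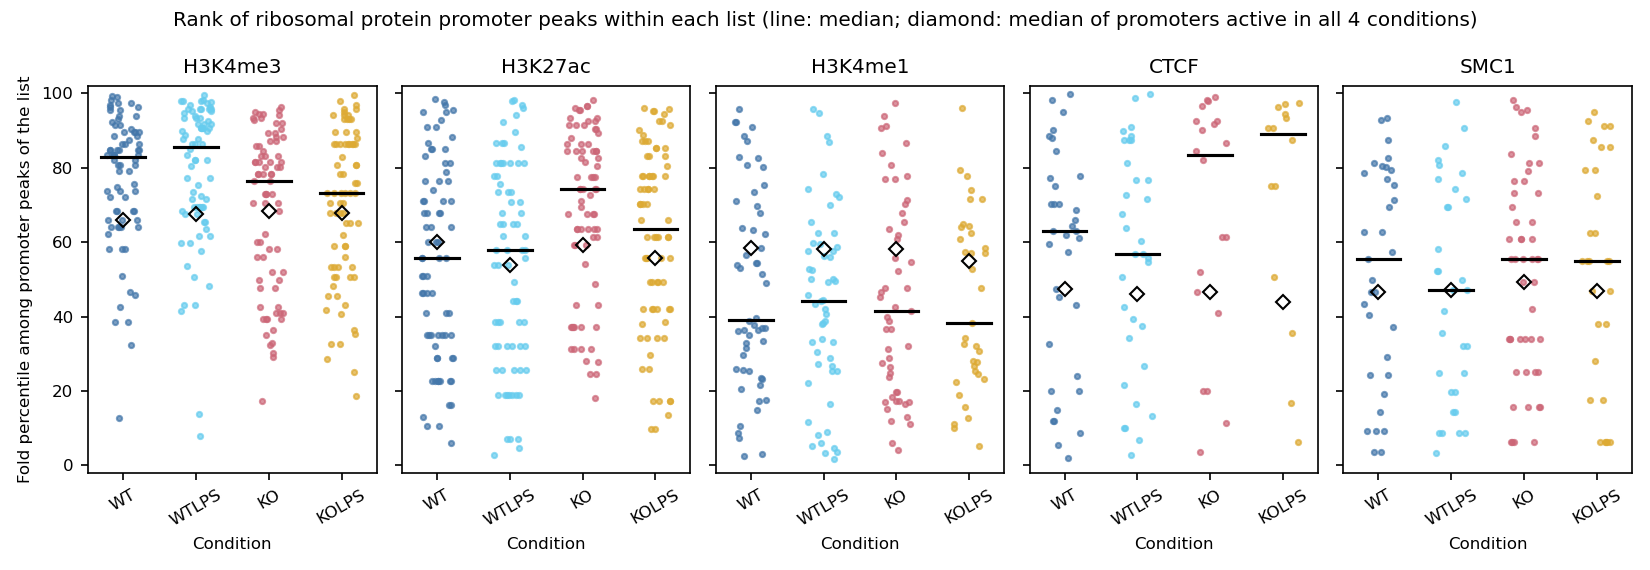
Percentile of each member's peak fold among all promoter peaks of its list (y axis) by condition (x axis) for H3K4me3, H3K27ac, H3K4me1, CTCF and SMC1, where points are members, the line is their median and the diamond is the median of active promoters. The H3K4me3 median stands at 82.8 in WT and 76.5 in KO, and the H3K27ac median at 55.7 and 74.4.

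H3K4me1 was found beside the starts and almost never over them. The labels name an Abcam antibody for these lists, while the peak names in the 4 lists carry the tag CST, so which antibody they come from was not settled. It was called at 54 members in WT and 54 in WTLPS, and 51 in KO and 35 in KOLPS, where 45.2%, 46.8%, 44.1% and 29.6% of all promoters were called. Active promoters carried it at 76.7%, 79.2%, 74.1% and 53.0%, against 62.8%, 62.8%, 59.3% and 40.7% of all members. The members here include those without both active marks, so the gap to the active members alone was not given. Calls in all 4 conditions were made at 30 members (24.5% of all promoters), and 21 had none. The peak covered the start itself at 1 of 54 members in WT and 2 of 54 in WTLPS, and 3 of 51 in KO and 0 of 35 in KOLPS. The same share was 7.72% in WT among active promoters and 15.1% among all called promoters. Folds were low, from 2.21 at Rps2, 2.22 at Rps12-ps3, 2.30 at Rpl23, 2.32 at Rps6 and 2.34 at Rpl27 to 3.29 at Rpl9-ps1, 3.34 at Rps15a, 3.38 at Rpl27a and Rps27l and 3.51 at Rps27a. With LPS, 19 members had H3K4me1 in WTLPS and not in KOLPS and 0 the reverse, where 19.4% of all promoters had it in WTLPS alone.

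H3K27me3 was nearly absent. It was called at Rps14, which shares its promoter window with the start of Ndst1, in WT and WTLPS, at Rps27rt in WT and at Rpl9-ps6 in KO, and at no member in KOLPS (95% Wilson interval 0 to 4.28%). All promoters were called at 20.3%, 14.1%, 20.6% and 5.75% in the 4 lists in the order used above. Any H3K27me3 call was thus seen at 3 of 86 members, while 25.5% of all promoters had at least 1. The active promoters, the closer background, nearly lacked the mark too. It was called at 116 of these 7174 promoters in WT and at fewer in each of the other lists. The near absence was therefore not particular to the members. Rps14 was the only one of the 3 members with an H3K27me3 call that also carried H3K4me3. Its H3K4me3 fold was the lowest of the called members in WT, KO and KOLPS and the lowest but 1, after Rpl9-ps1, in WTLPS.

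**Figure D3:**
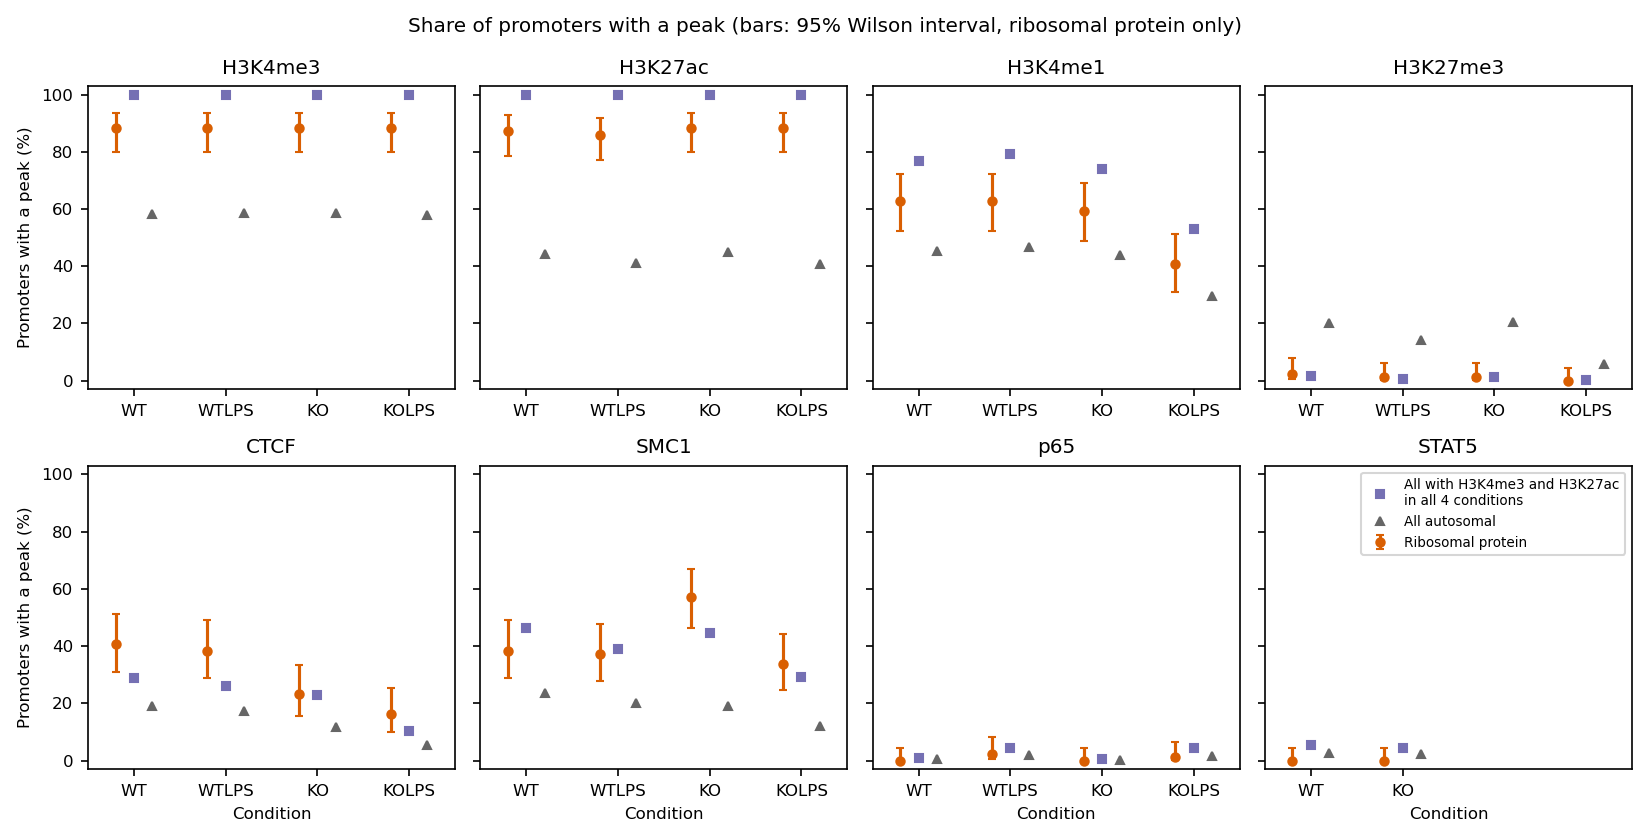
Share of promoters with a peak (y axis, percent) by condition (x axis) for each antibody, for the 86 ribosomal protein promoters (circles with 95% Wilson intervals), the active promoters (squares) and all autosomal protein-coding promoters (triangles). CTCF at members stands at 40.7% in WT and 23.3% in KO, and SMC1 at 38.4% and 57.0%.

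CTCF was called at 35 members in WT (40.7%, interval 30.9 to 51.3), 33 in WTLPS, 20 in KO and 14 in KOLPS (16.3%, interval 9.95 to 25.5). Active promoters were called at 28.8%, 26.0%, 22.9% and 10.3%. At least 1 list had CTCF at 41 members (24.7% of all promoters), and 45 had it in none. CTCF was called in all 4 conditions at 12 members, among them Rpl26, Rpl27, Rpl38, Rps29, Rpl36, Rpl35, Rps3a1, Rpl5, Rplp0 and Rpl32 (4.02% of all promoters were). Summits lay upstream of the start at 30 of 35 members in WT, and only 14.3% lay downstream, against 33.1% at all called promoters.

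Of the 35 members with CTCF in WT, 18 had it in KO too and 17 did not. At all promoters 12% had CTCF in WT and not in KO. Members with a WT peak still had one in KO at 51.4%, against 43.8% of active promoters and 37.8% of all. Rpl30 and Rpl9 had CTCF in KO and not in WT (4.35% of all promoters), both at a fold of 4.56. After LPS 12 members had CTCF in both WTLPS and KOLPS, 21 in WTLPS alone (12.9% of all promoters) and 2, Rpl23 and Rpl9, in KOLPS alone (1.18%). Across LPS treatment 5 members were called in WT and not WTLPS (3.26% of all promoters) and 3 in WTLPS and not WT (1.32%). Of the 20 members called in KO, 7 had no CTCF in KOLPS, where 6.37% of all promoters had it in KO and not KOLPS. Only Rpl23 had CTCF in KOLPS and not KO (0.347% of all promoters). CTCF in the WT list and not in the KO list was seen in both pairs at 12 members, which is 70.6% of the 17 and 57.1% of the 21, beside 74.9% and 69.6% over all promoters.

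The peaks that were still called were higher and closer to the start. Their median WT fold was 15.3 and their median distance from the start was 261 bp, with 9 of 18 within 250 bp. The 17 called in WT alone had a median fold of 6.54 and a distance of 786 bp, with 2 within 250 bp. At all promoters the folds were 15.7 and 7.39, like those of the members, and the distances were 520 and 678 bp. In the members' 300 bases the CTCF core was found in 7 of 12 with CTCF in WT and KO and in 2 of 11 with CTCF in WT alone. Within 50 bp of the WT summit itself it was found at 6 of 18 and 7 of 17, so the difference in the promoter window was not seen at the summits. It stood at 13 of 35 summits in all (37.1%), against 28.4% at all promoters.

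Rps29, a zinc-binding protein of the small subunit, had the highest CTCF peak of the members. Its fold was 57.6 in WT and 50.1 in WTLPS, and 18.2 in KO and 12.6 in KOLPS, with the WT summit at -556 bp from the start. Folds of different lists are set side by side here and their sizes are not compared. Within its list this peak stood at percentile 99.97 in WT and WTLPS, and at 99.1 in KO and 97.4 in KOLPS, so it was near the top of all 4. Rpl35 had folds of 32.1, 29.1, 6.33 and 7.07 in the same order, at percentiles 98.4, 98.7, 61.3 and 75.04. Rplp0 had 26.0, 17.4, 16.0 and 10.5, at percentiles 95.1, 87.4, 98.1 and 94.5. Rpl36 had 21.7, 19.2, 16.5 and 12.3, at 90.2, 90.9, 98.3 and 97.2, and Rpl5 had 16.7, 12.8, 13.9 and 11.5, at 77.2, 71.7, 96.6 and 96.3. The promoter peaks ranked numbered 3987 in WT and 3585 in WTLPS, and 2407 in KO and 1158 in KOLPS, so these percentiles are of lists of unequal length and are not compared between genotypes. Rpl38 at 19.2, Rpl11 at 16.9 and Rps20 at 16.0 in WT were also among the highest and were called in KO. Rpl11, which partners Rpl5 in the 5S particle, had a fold of 15.4 in WTLPS and 6.33 in KO and no peak in KOLPS.

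Rpl7a was the only one of the 10 highest in WT with no peak in KO or KOLPS. Its folds were 20.8 in WT and 17.4 in WTLPS, and the WT summit lay at -1182 bp, outside the window that the peak reached into. The start of Med22 lies within 1 kb of that of Rpl7a. Rpl14 and Rpl29 followed among those called in WT and not in KO, both at 14.6, then Rpl6 at 12.7, Rps13 at 11.4 and, lower, Rpl13a at 8.65, Rpl10a at 8.23, Rpl37a at 6.54 and Rpl23a at 5.49. After LPS the highest in WTLPS alone were Rps19bp1 and Rpl7a at 17.4, Rpl11 at 15.4, Rpl14 and Rps20 at 14.1, Rpl6 at 13.0, Rps26 at 10.6, Rps19 at 9.93, Rpl29 at 9.71 and Rpl10a at 8.83. Several of the summits, such as those of Rpl7a, Rpl14, Rps20 and Rps19bp1, lay over 1 kb from the start.

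**Figure D4:**
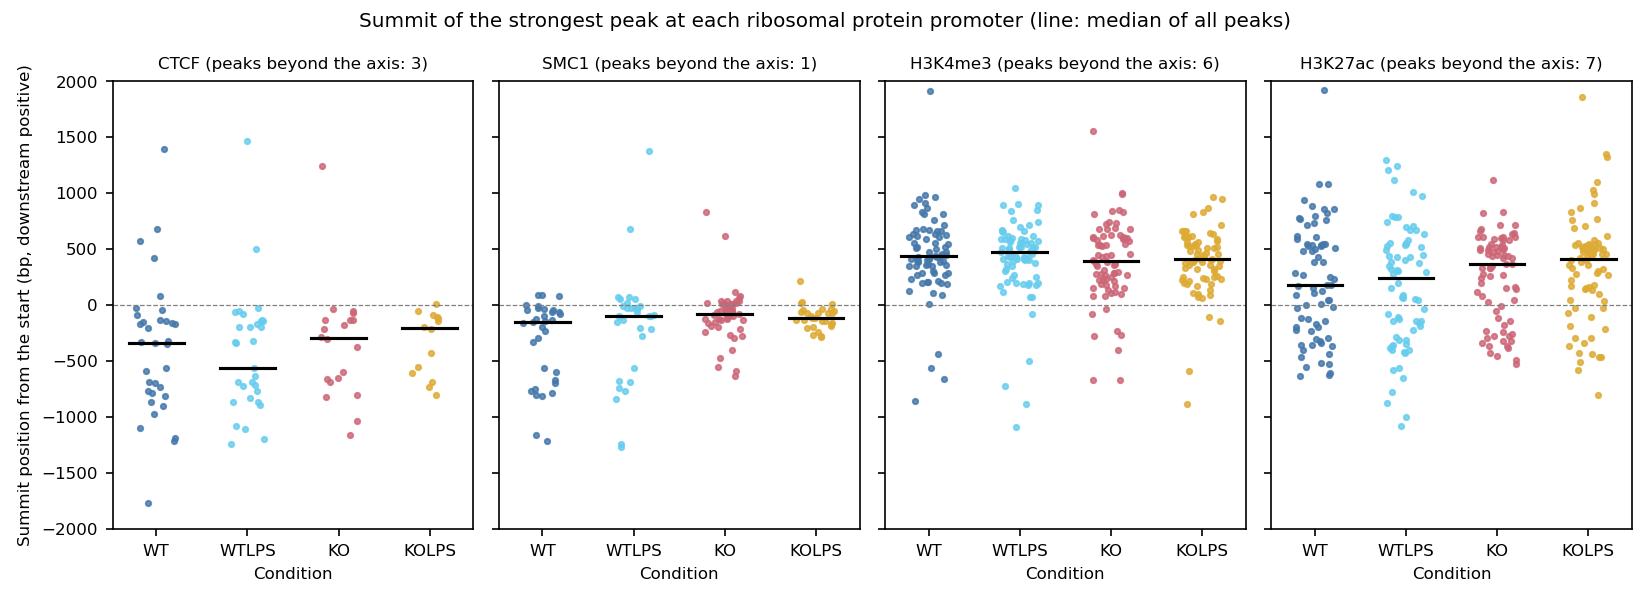
Position of the summit of the strongest peak at each ribosomal protein promoter from the start (y axis, bp, downstream positive) by condition (x axis) for CTCF, SMC1, H3K4me3 and H3K27ac, where points are members and the line is the median. CTCF summits lie upstream (30 of 35 in WT), H3K4me3 summits downstream (72 of 76 in WT), and SMC1 summits near the start, with 39 of 49 within 250 bp in KO.

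SMC1 was called at more members in KO than in WT. It was found at 33 members in WT (38.4%, interval 28.8 to 48.9), 32 in WTLPS, 49 in KO (57.0%, interval 46.4 to 66.9) and 29 in KOLPS. All promoters were called at 23.5%, 20%, 19% and 12.1%, and active promoters at 46.2%, 38.9%, 44.5% and 29.1%. Both backgrounds were thus lower in KO than in WT, where the members' count was higher. Other sets of translation genes, described below, also had more SMC1 calls in KO than in WT. All 33 members called in WT were among the 72 active members, so the 38.4% of all members understates the share of the active ones. SMC1 was called in at least 1 list at 61 members (31.6% of all promoters) and in all 4 at 12 (7.09% of all promoters), among them Rpl41, Rps26, Rpl27, Rpl38, Rps18, Rplp0, Rpl21, Rps9, Rps19, Rpl4 and Rps27l.

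Between WT and KO, 24 members had SMC1 in both, 25 in KO alone, 9 in WT alone and 28 in neither. KO alone held for 5.5% of all promoters and WT alone for 10%. Among members without SMC1 in WT, 47.2% had it in KO, against 23.2% of active promoters and 7.20% of all. After LPS 14 members had SMC1 in both, 15 in KOLPS alone (3.62% of all promoters), 18 in WTLPS alone (11.6%) and 39 in neither. The excess of members in KO was thus not present after LPS, where the difference was 3 members in the other direction. Between WT and WTLPS, 8 members had SMC1 in WT alone (6.02% of all promoters) and 7 in WTLPS alone (2.48%). Between KO and KOLPS, 22 members had SMC1 in KO alone (9.32% of all promoters) and 2 in KOLPS alone (2.35%). Background coverage was lower in KOLPS (above), and its part in this was not tested.

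The SMC1 peaks called in KO and not in WT were low and lay at the start. Their fold was 3.47 to 5.52 with a median of 3.95, and their −log10 p was 7.25 to 16.8, where the lowest in the list was 7.005. The median fold of all promoters with SMC1 in KO alone was also 3.95, so the low height was not particular to the members. Their summits lay within 250 bp of the start at 21 of 25 (84.0%), against 48.1% of all promoters with SMC1 in KO alone. Among the highest were Rpl18 at 5.52, Rps2 at 5.21, Rplp1 and Rps3 at 5.05, Rps12 at 4.73, Rpsa at 4.58, Rpl7 and Rplp2 at 4.42 and Rpl23 at 4.26. Rps3, whose product sits where mRNA enters the small subunit, had its summit 35 bases after the RefSeq start in the sequence given above, Rps12 had it at -114 and Rpsa at -43. At Rps2 the KOLPS fold was 7.46, the highest of the members in that list.

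SMC1 in KO and KOLPS but not in the matching WT list was seen in both pairs at 10 members, among them Rps12, Rps27a, Rpl26, Rps2, Rps28, Rps21, Rpl22, Rps3 and Rplp1. These are 40% of the 25 without LPS and 66.7% of the 15 with it, while the shares over all promoters were 20.9% and 31.7%. The remaining 5 after LPS were Rps19bp1, Rpl31, Rpl37, Rpl3 and Rpl34. Rpl3 had SMC1 in WT at 6.09, in KO at 9.15 and in KOLPS at 6.73, and lacked it only in WTLPS. Rpsa was called in WTLPS at 3.55 and so counted in the unstimulated pair alone. The lowest SMC1 fold of any member was 3.44 in WT and 3.40 in WTLPS, and 3.47 in KO and 3.64 in KOLPS, so many of these calls lay near the lower end of their lists.

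Members with SMC1 in WT and not in KO included Rpl14, Rpl13a, Rpl7a, Rpl35, Rpl36, Rpl15, Rpl13 and Rpl23a. Rpl14 had the highest SMC1 fold of the members in WT at 14.4, had 12.1 in WTLPS and had no peak in KO or KOLPS. At Rpl14, Rpl13a, Rpl7a, Rpl35 and Rpl36 the SMC1 summit lay within 50 bp of the CTCF summit in WT. Also among the highest in WT were Rps19 at 10.9, Rps26 at 9.37, Rplp0 at 9.06, Rps29 at 8.90, Rpl11 at 8.77, Rpl27 at 8.59, Rpl13a at 8.43 and Rpl38 at 8.12. Rplp0 had SMC1 folds of 9.17 in WTLPS and of 7.42 and 5.46 in KO and KOLPS. The highest in WTLPS and not in KOLPS was Rpl9-ps1 at 18.8 with its summit at -3991 bp, and lower ones included Rpl14, Rpl11 at 8.43, Rps29 and Rpl7a at 6.95, Rpl35 at 5.17, Rps20 at 5.03 and Rps7 and Rpl23a at 3.99.

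Summits of SMC1 lay within 250 bp of the start at 60.6% of called members in WT and 62.5% in WTLPS, and 79.6% in KO and 89.7% in KOLPS. Over all called promoters the shares were 39.3%, 34.4%, 46.6% and 55.8%, so they were also higher in the KO lists. The distance from a member's start to the nearest SMC1 summit, called at the promoter or not, had a median of 2.97 kb in WT and 3.12 kb in WTLPS, and 0.347 kb in KO and 24.8 kb in KOLPS. For active promoters the medians were 1.75, 2.91, 2.43 and 16.8 kb, so of these 2 sets the members alone had a lower median in KO than in WT. With 49 of 86 members called in KO, the median member there had a peak at its own promoter.

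**Figure D5:**
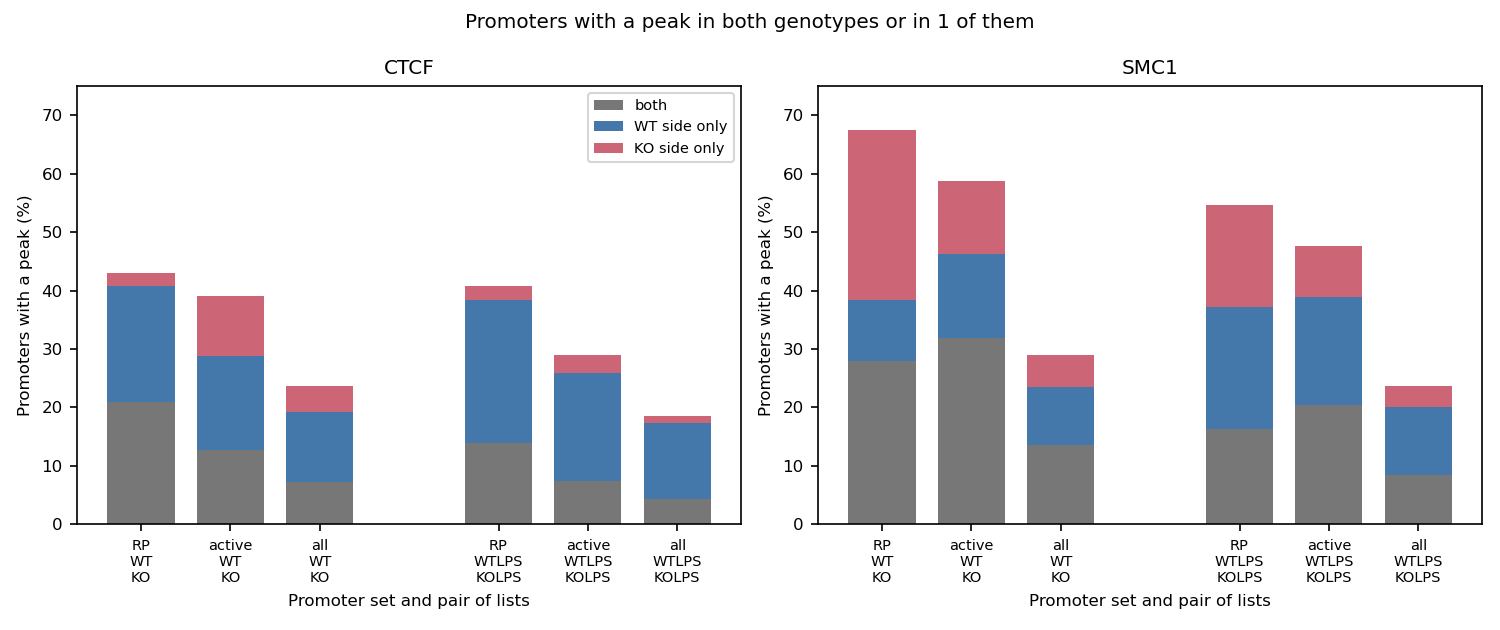
Share of promoters (y axis, percent) with a CTCF or SMC1 peak in both genotypes, in the WT list alone or in the KO list alone, stacked, for ribosomal protein promoters (RP), active promoters and all promoters, without LPS (WT and KO) and with it (WTLPS and KOLPS). For SMC1 25 members are called in KO alone and 9 in WT alone, and after LPS the counts are 15 and 18.

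SMC1 was called more often at members with CTCF than at those without in WT, WTLPS and KO, and not in KOLPS. SMC1 was present at 25 of the 35 members with CTCF in WT (71.4%), 21 of 33 in WTLPS (63.6%), 17 of 20 in KO (85.0%) and 4 of 14 in KOLPS (28.6%). Of members without CTCF, 15.7%, 20.8%, 48.5% and 34.7% had SMC1, so in KOLPS the share without CTCF was the higher. The members without CTCF include members without both active marks. All promoters with CTCF had SMC1 at 65.8%, 62.7%, 38.6% and 27.3%, and their gap to the members was widest in KO. All promoters without CTCF had it at 13.5%, 11.1%, 16.5% and 11.2%. Active promoters had SMC1 at 73.4%, 67.7%, 45.3% and 30.7% with CTCF and at 35.15%, 28.8%, 44.2% and 29.0% without. Members with neither protein in WT numbered 43, and 18 of these had SMC1 in KO (41.9%), against 23.2% of active promoters and 6.69% of all. After LPS 10 of 42 did (23.8%), against 14.2% and 4.25%. Of the 18 members with CTCF in both WT and KO, SMC1 was present in KO at 11 of 14 that had it in WT and at 4 of 4 that had not. Of the 17 with CTCF in WT alone the counts were 6 of 11 and 3 of 6. Neither protein was called in any condition at 10 active members, Rpl36al, Rps23, Rps24, Rpl8, Rpl35a, Rpl12, Rps6, Rpl28, Rps16 and Rpl27a. The stretches of Rps16 and Rpl28 above are from this group.

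The p65 and STAT5 lists had few peaks at these promoters, as at all promoters, and the active promoters had larger shares. p65 was called at no member in WT (interval 0 to 4.28%) or KO, at Rpl24 and Rpl37a in WTLPS and at Rps19 in KOLPS. All promoters were called at 0.352%, 1.87%, 0.236% and 1.63% in WT, WTLPS, KO and KOLPS. Of the 7174 active promoters 66, 325, 45 and 314 were called in that order. Rpl24, at the interface of the ribosomal subunits, had a p65 fold of 10.8, at percentile 79.6 of promoter peaks, with its summit 760 bp downstream of the start. Rpl37a had 4.31 at 765 bp downstream, and Rps19, the gene most often mutated in Diamond-Blackfan anaemia, had 6.60 at -214 bp. The 3 members with NF-kB letters in their promoters, Rps12, Rps2 and Rpsa, had no p65 peak. In contrast, p65 was called at 7 of 16 NF-kB target genes in WT and 14 in WTLPS, and 6 in KO and 11 in KOLPS. STAT5 was called at no member, where 2.56% of all promoters were called in WT and 2.16% in KO. It was called at 396 of the 7174 active promoters in WT and at 324 in KO. Within 10 kb of the start, STAT5 summits were found at 10 members in WT and 6 in KO, the nearest being 1481 bp from Rpl24 in WT. These are 11.6% and 6.98% of members, beside 10.1% and 8.31% of all starts and 17.9% and 14.3% of those of active promoters. p65 summits lay that near at 1, 5, 1 and 2 members in WT, WTLPS, KO and KOLPS, or 1.16%, 5.81%, 1.16% and 2.33%. The shares of all starts were 1.32%, 6.81%, 0.888% and 3.58%, and those of active promoters 2.94%, 13.6%, 1.965% and 8.11%.

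Other genes of translation gave a partly different picture. Mitochondrial ribosomal protein genes, whose products build the separate ribosome of mitochondria, had H3K4me3 at 78 of 78 promoters in each condition. They had H3K27ac at 73, 67, 73 and 66, CTCF at 25, 27, 27 and 12 and SMC1 at 28, 24, 35 and 22, in WT, WTLPS, KO and KOLPS. Of these promoters 12 had SMC1 in KO alone and 5 in WT alone, and 24.0% of those without SMC1 in WT had it in KO, against 47.2% of cytoplasmic members. CTCF was at 10 in WT alone and at 12 in KO alone, where the cytoplasmic members had 17 and 2. The 24 ribosome biogenesis genes, such as Ncl and Npm1, had H3K4me3 at all 24 in each condition, CTCF at 10, 9, 11 and 6 and SMC1 at 8, 11, 11 and 8. The 16 translation factor and other 5′ TOP genes, such as Eef1a1 and Tpt1, had both active marks throughout, CTCF at 2, 3, 5 and 3 and SMC1 at 5, 4, 8 and 7. The mitochondrial, biogenesis and 5′ TOP sets thus each had more SMC1 calls in KO than in WT, as the members did. Fau, which encodes a ribosomal protein fused to a ubiquitin-like part and falls outside the name rule, had both active marks in all 4 conditions and neither CTCF nor SMC1 in any. Of Rpl7l1 and Rpl22l1, which the rule leaves out, 1 had CTCF and 1 had SMC1 in each condition. These lists are described by their counts, and no difference between them and the members was tested.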

How the data were processed

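ChIP-seq libraries of 7 antibodies in 4 conditions and of STAT5 in 2 gave 30 peak lists, and 4 input libraries had no list. The submitters' processing notes name BWA 0.7.12, Picard 1.77, MACS2 2.1.2 and deepTools 3.1.3 with mm10, without their settings. The deposited lists, in narrowPeak or broadPeak format, hold position, fold enrichment (a linear ratio), −log10 p and −log10 q for each peak, and summits for the 22 narrow-peak lists but not for the 8 broad ones (H3K27me3, H3K4me1). The deposited lists hold no read counts, and the read totals that the study states for its libraries were not used here. Background coverage was recovered from −log10 p and fold. 0 peaks lay beyond the ends of the chromosomes.

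Starts were taken from GENCODE M21 on mm10 (longest protein-coding transcript). A promoter reached 1 kb up- and downstream of the start, and it was called when a peak overlapped it by at least 1 bp. The strongest peak by −log10 p gave fold and summit. Shares carry 95% Wilson intervals, which cover counting error over promoters only. No test was run, since each antibody and condition had 1 list. Named members were, for each factor, all with a peak or with differing calls where 15 or fewer, otherwise the 10 of highest fold, and, for each histone mark, the exceptions and the 5 highest and 5 lowest in WT. Some members that this rule names are not reported here. Members and gene lists were chosen with earlier results of these data known. Alternatives were a promoter of 2.5 kb, any annotated start, the stronger peaks of each list and an overlap of 200 bp. Motifs were searched on both strands of RefSeq promoters of 300 bases. Promoter calls were tested on simulated lists. Python 3.11.15, NumPy 2.4.6, pandas 2.3.3, SciPy 1.17.1, pysam 0.24.0 and matplotlib 3.10.9 were used.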

Additional observations from a re-analysis of the deposited data

Results flagged for a closer look

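SMC1 at the ribosomal protein promoters had opposite directions in the unstimulated and the LPS pair. KO had 16 more called members than WT (49 and 33), while KOLPS minus WTLPS was -3 (29 and 32). Each arm was 1 list, and the difference between the pairs was not tested. With the stronger peaks of each list alone the values were 11 and 2, so the sign after LPS turned, and the excess in the unstimulated pair was 10 to 17 under the 4 alternatives. SMC1 background coverage was 5.34 fragments per base in KO and 4.50 in KOLPS, and the lists held 29965 and 17241 peaks. The part of coverage and list length in the difference was not tested.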

How the results depend on the processing

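The 16 counts of members, within 1 list or across lists, were recomputed under 4 alternatives, and 47 of 64 values stayed within 1.5 times the main count. The counts of members called in KO and not in WT, or in KOLPS and not in WTLPS, were added after seeing the data. Of 120 shares of members per list, 94 stayed inside the interval of the main value. With only the stronger peaks of each list (those at or above its median −log10 p), CTCF in WT and not KO went from 17 to 10, CTCF in KO and not WT from 2 to 0, CTCF in KOLPS and not WTLPS from 2 to 1, SMC1 in WTLPS and not KOLPS from 18 to 7, SMC1 in KOLPS and not WTLPS from 15 to 9, p65 from 2 to 1 in WTLPS and from 1 to 0 in KOLPS, H3K4me1 in all 4 from 30 to 8 and any H3K27me3 from 3 to 1. Shares there were 43% in WT and WTLPS, 34.9% in KO and 19.8% in KOLPS for H3K4me1, 20.9%, 17.4%, 33.7% and 19.8% for SMC1, 29.1% in WT and 26.7% in WTLPS for CTCF, 0% for H3K27me3 in WTLPS and KO and 0% for p65 in KOLPS. With 2.5 kb, SMC1 in WT and not KO was 14, STAT5 in WT was 1 (Rpl24), H3K4me1 in all 4 was 59 and any H3K27me3 was 7, and shares were 86%, 89.5%, 88.4% and 68.6% for H3K4me1 and 53.5% for CTCF in WT. With any annotated start, STAT5 was 1 in WT and 1 in KO (Rpl11) and H3K4me1 in all 4 was 51, at 86%, 82.6%, 82.6% and 60.5% by list. With 200 bp covered, H3K4me1 in all 4 was 14, at 46.5%, 50%, 47.7% and 22.1%. The lists of stronger peaks hold fewer peaks and the wider windows more bases by construction, and other causes were not tested. KO minus WT for SMC1 was above 0 in every setting. No paired analysis was possible because each antibody and condition had 1 list. Read depth was not used, and calls near the lowest −log10 p of a list limit every comparison between lists.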
